A study of Homo sapiens with 6 samples.

Results

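The genes described here are 31 genes of the endoplasmic reticulum (ER): its chaperones and folding enzymes, the machinery that removes misfolded proteins from it, the channel that brings proteins into it, and the sensors of the unfolded protein response. They were taken by name from 32 listed symbols, of which VIMP is an older symbol of SELENOS, so that 31 of the 20263 genes of the table were described. All 31 passed the filter on low counts that left 13769 genes in the test. They were measured by polyadenylated RNA sequencing in AsPC-1 cells, a line derived from a human pancreatic adenocarcinoma. The cells had been transfected with a negative control siRNA (siControl) or with 1 of 2 siRNAs against HMOX1, named HMOX1si1 and HMOX1si2, and each of these 3 groups held 2 libraries. HMOX1 encodes heme oxygenase-1, the enzyme that opens the heme ring. The study asked how HMOX1 may act on the proliferation of pancreatic cancer cells.

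Proteins bound for secretion, the plasma membrane or the lysosome enter the ER through the SEC61 channel, and are folded there by HSP70- and HSP90-type chaperones, by the lectins calnexin and calreticulin, and by enzymes that form and rearrange disulfide bonds. Proteins that fail to fold are returned to the cytosol and degraded, which is called ER-associated degradation. When unfolded proteins accumulate, the 3 sensors ATF6, IRE1 (encoded by ERN1) and PERK (encoded by EIF2AK3) start the unfolded protein response, which raises transcription of many of these genes and, through PERK, lowers protein synthesis. Secretory epithelia such as the pancreas carry a heavy load of this traffic. The counts measure transcripts: they do not show splicing of XBP1, phosphorylation of PERK or cleavage of ATF6.

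The total counts of the 6 libraries were 36.1 to 45.1 M. HMOX1 stood at 9.06 and 8.52 CPM (counts scaled to a common library size) in the siControl libraries, at 2.43 and 2.80 with HMOX1si1 and at 1.27 and 1.17 with HMOX1si2, so the target was lower in all 4 knockdown libraries (29.8% and 13.9% of control in the fit). It was lower with HMOX1si2 than with HMOX1si1 (log2 difference -1.10, SE 0.17, edgeR adjusted p = 0.0284), a call lost without any 1 of the 6 libraries (adjusted p up to 0.141). The call against siControl was lost without siControl replicate 2 for HMOX1si1, and without either siControl library for HMOX1si2, with log2 fold changes from -1.85 to -1.65 and from -2.90 to -2.79 over all settings. All 6 epithelial markers were above 1 CPM in every library, although CLDN4 ranged from 6.13 CPM in HMOX1si1 replicate 1 to 853 CPM in siControl replicate 2. The summed epithelial markers were lower with HMOX1si1 (9046 to 9341 CPM) than with siControl (13306 to 15106) or HMOX1si2 (12928 to 13155). KRT8, KRT18 and KRT19 carried most of this sum, whereas EPCAM was at 663 and 686 CPM with siControl and 651 and 649.9 with HMOX1si1, and CDH1 was higher with HMOX1si1 (110.6 and 98.5) than with siControl (91.0 and 74.9). The summed fibroblast markers, nearly all LUM, were at 119 to 125 CPM with siControl, 91.2 to 95.4 with HMOX1si1 and 79.0 to 87.0 with HMOX1si2, with the other 5 markers under 5 CPM. The summed blood markers, mostly CD68, were at 98.3 to 103, 140 to 170 and 106 to 140 CPM. CD14 was at 5.90 to 10.3 CPM over the 6 libraries, CD3E at 0 in every library and PTPRC under 1 CPM. The part of these differences in the values of the ER genes was not tested. Of the endocrine markers, INS and SST were at 0 in every library and GCG and CHGA were under 1 CPM, while PAX6 was at 3.82 to 5.98 CPM. The endothelial and acinar markers were near 0, with CPA1, AMY2A and PNLIP at 0 in every library. Nothing in the labels says that the 2 libraries of a group came from separate cultures, so the p-values measure the spread between these libraries, which may be technical. In bulk RNA, fewer cells of a kind and less RNA per cell cannot be told apart.

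Many genes of this group share short promoter sequences that were originally defined from such promoters and are bound by ATF6 and XBP1 together with the factor NF-Y. The ER stress element (ERSE) was searched as CCAAT and CCACG with 9 bases of any kind between them, and its variant ERSE-II as ATTGG and CCACG with 1 base between them, on both strands, from 250 bases before to 50 bases after each start in RefSeq's promoters (GRCh38.p14). A promoter was on hand for 29 of the 31 genes. ERSE was found in 8 of these 29 (27.6%), against 27 of 35116 promoters in all (0.077%). ERSE-II was found in 3 of the 29 (10.3%), against 19 in all (0.054%). A listed gene was counted once if any of its promoters matched, whereas the promoters in all were counted entry by entry. A gene with several promoters has more places for a match, so these shares and those below are not like for like. Since the element was derived from promoters of this family, these shares are a description. The sequences below are shown because 11 of the 29 genes hold 1 of the 2 elements, and 18 hold neither. Each is given 5′ to 3′ on the strand of its gene, with the element in capitals, and the matches that read CGTGG first hold it on the opposite strand.

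HSPA5 (ERSE, chr9:125241376-125241424, minus strand): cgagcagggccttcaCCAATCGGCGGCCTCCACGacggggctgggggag
PDIA6 (ERSE, chr2:10812838-10812886, minus strand): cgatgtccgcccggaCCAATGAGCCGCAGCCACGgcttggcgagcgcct
XBP1 (ERSE, chr22:28800588-28800636, minus strand): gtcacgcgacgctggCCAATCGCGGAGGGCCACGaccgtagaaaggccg
CALR (ERSE, chr19:12938369-12938417, plus strand): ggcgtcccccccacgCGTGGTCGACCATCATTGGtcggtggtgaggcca
CRELD2 (ERSE, chr22:49918539-49918587, plus strand): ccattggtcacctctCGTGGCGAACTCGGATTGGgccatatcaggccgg
HYOU1 (ERSE-II, chr11:119057365-119057405, minus strand): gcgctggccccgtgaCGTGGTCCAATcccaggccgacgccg
SDF2L1 (ERSE-II, chr22:21642099-21642139, plus strand): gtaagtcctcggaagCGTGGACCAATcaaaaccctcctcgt
HERPUD1 (ERSE-II, chr16:56932010-56932050, plus strand): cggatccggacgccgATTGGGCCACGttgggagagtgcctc

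The other 3 genes with ERSE were HSP90B1 (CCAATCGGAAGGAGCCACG at chr12:103930216-103930234, and a second match, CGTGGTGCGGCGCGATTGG, at chr12:103930321-103930339), CANX (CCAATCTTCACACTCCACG at chr5:179698778-179698796) and ERO1B (CGTGGTCCCGCCTCATTGG at chr1:236282183-236282201). The 5 letters CCAAT alone, which are part of both elements, were in any promoter of 25 of the 29 genes (86.2%), against 34.6% of all promoter entries. The separate element TGACGTGG was in HYOU1 only (256 promoters in all, 0.729%), where it overlaps the ERSE-II shown. HYOU1 also held a second ERSE-II match, CGTGGTCCAAT, at chr11:119057274-119057284. ACGTG, the core of the hypoxia response element, was in 15 of 29 genes (51.7%), against 21.4% of all promoter entries. In HYOU1 and HERPUD1, matches to ACGTG overlap ERSE-II. The letters TGATGNAA, searched as an amino acid response element, were in HERPUD1 only (3.45% against 3.62%), and TGACNNNGC, the core of the antioxidant response element, in 6 of 29 (20.7% against 13.3%). The promoters of ERO1A, DNAJB9, EIF2AK3 and SEL1L held neither ERSE nor ERSE-II in the window searched.

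In the siControl libraries the levels per length, in CPM per kb of annotated exons, were highest for CALR (251), HSP90B1 (226), HSPA5 (177), PDIA4 (154), PDIA3 (141) and CANX (132). They were lowest for ERO1B (0.649), EIF2AK3 (3.59) and DERL2 (3.81). The chaperones and isomerases were thus far above the sensor PERK. The 31 genes held between 0.720% and 0.766% of the counts of a library, and their summed CPM ran from 7304 to 7747. The highest and the lowest sum were both from HMOX1si1 libraries, so the groups overlapped in this sum. The plot of CPM by library shows each gene in each library.

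**Figure D1:**
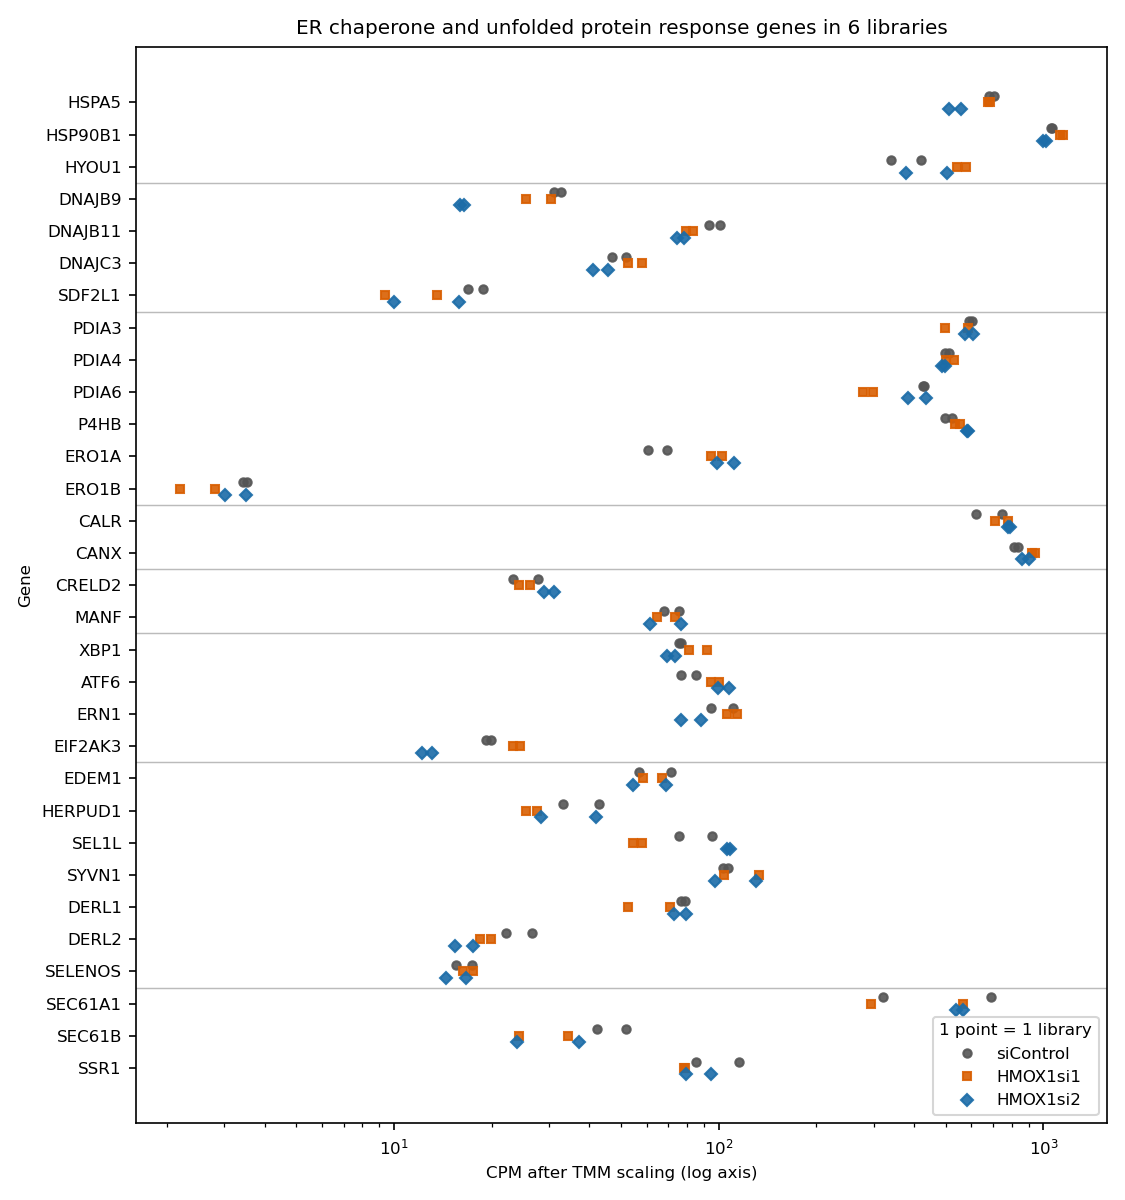
CPM after scaling (x axis, log scale) of the 31 ER genes (y axis) in the 2 siControl (circles), 2 HMOX1si1 (squares) and 2 HMOX1si2 libraries (diamonds), 1 point per library, with lines between roles. HSP90B1 is the highest at 999 to 1147 CPM and ERO1B the lowest at 2.20 to 3.54 CPM, and for most genes the 6 points lie close together.

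Few of the ER genes passed the threshold, and those that did were not all in 1 direction. With 2 libraries a group, a gene that was not called may still have changed. With HMOX1si1, ERO1A rose and PDIA6 and SEL1L fell, which is 3 of 31 genes (9.68%) against 10.0% of all genes tested (5.02% higher and 5.01% lower). With HMOX1si2, ERO1A rose and DNAJB9 and EIF2AK3 fell, again 3 of 31, against 5.73% of all genes (3.06% higher and 2.67% lower). For the average of both siRNAs, ERO1A rose and DNAJB9 fell, which is 2 of 31 genes (6.45%) against 10.1% (5.16% higher and 4.93% lower). Between the siRNAs, SEL1L was higher and DNAJB9 and EIF2AK3 were lower with HMOX1si2, 3 of 31 against 3.62% (2.14% higher and 1.49% lower). The shares with HMOX1si1 and on average did not exceed those of all genes, and the others exceeded them by few genes. Each count is at an edgeR adjusted p under 0.05 over all 13769 genes tested, and 5 of the 31 genes were called in any comparison. The comparisons with siControl share the same 2 control libraries.

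The median log2 fold change of the 31 genes was -0.03 with HMOX1si1, -0.07 with HMOX1si2 and -0.06 on average. The median over all genes tested was -0.00, 0.00 and -0.00. Without regard to sign, the median change of the ER genes was 0.19 with either siRNA and 0.16 on average, against 0.28, 0.25 and 0.24 over all genes, which were not matched in level. With HMOX1si1, 9 of the ER genes were above both siControl libraries in both knockdown libraries and 12 were below, against 31.9% of all genes above and 31.9% below. With HMOX1si2, 7 were above and 11 below, against 28.9% and 28.1%. In all 4 knockdown libraries, 4 were above both controls (P4HB, ERO1A, CANX and ATF6) and 5 were below (DNAJB9, DNAJB11, SDF2L1, DERL2 and SEC61B), against 18.7% and 18.2% of all genes. Between the siRNAs, both HMOX1si2 libraries were above both HMOX1si1 libraries for 9 ER genes and below them for 12, against 25.3% and 26.0% of all genes.

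**Figure D2:**
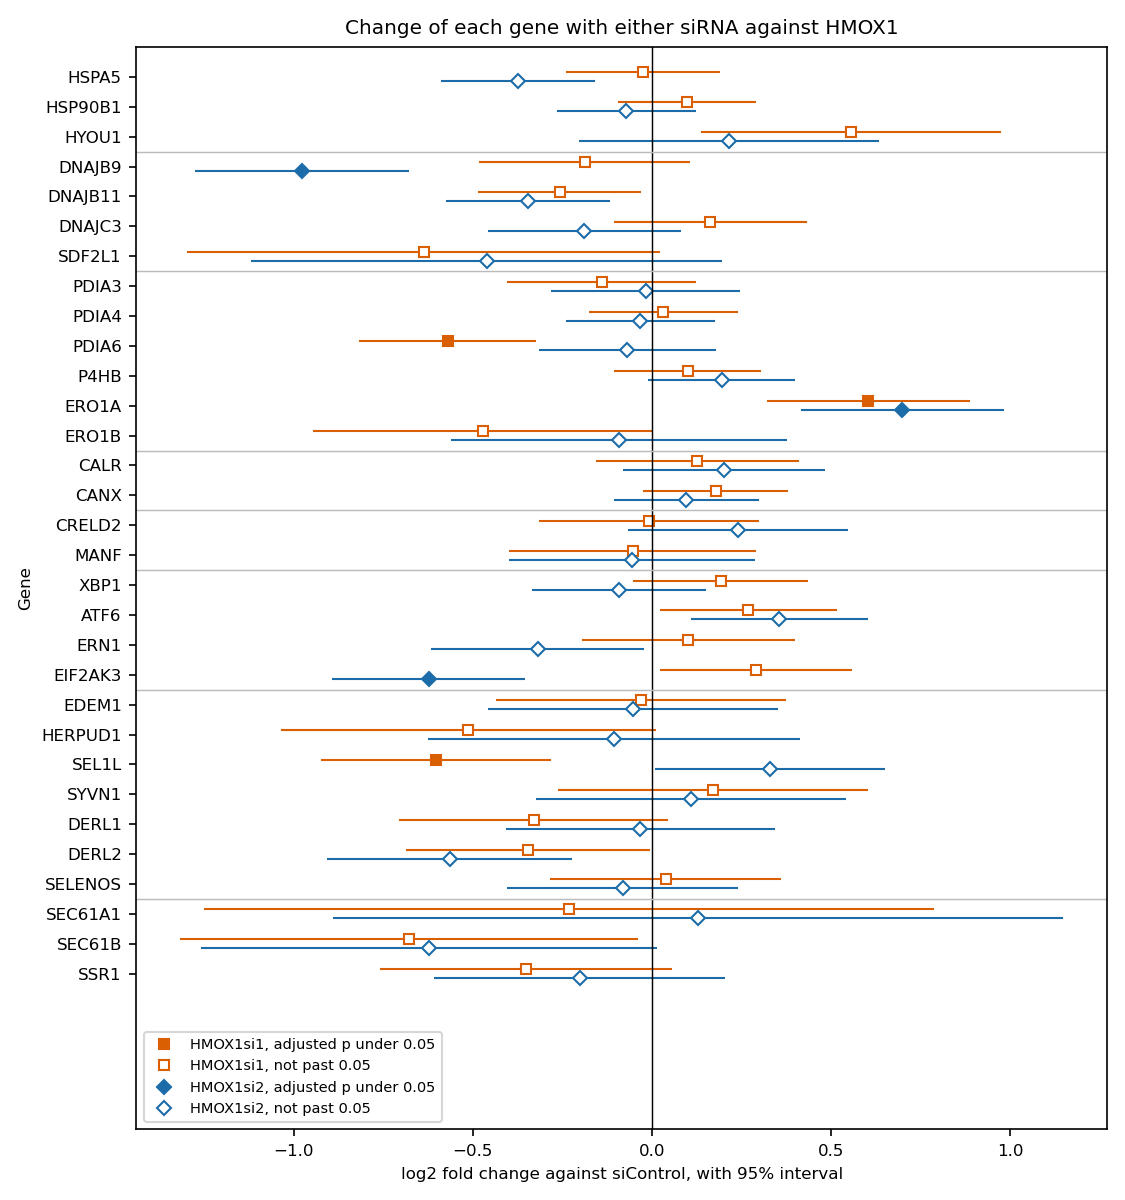
Log2 fold change against siControl (x axis) of each ER gene (y axis) with HMOX1si1 (squares) and HMOX1si2 (diamonds), from edgeR, with 95% intervals as bars, and filled where the adjusted p is under 0.05. The filled points are ERO1A at 0.60 and 0.70, PDIA6 at -0.57, SEL1L at -0.60, DNAJB9 at -0.98 and EIF2AK3 at -0.62, and the intervals of SEC61A1, SDF2L1 and SEC61B are the widest.

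Among the sensors, EIF2AK3 (chr2:88556741-88627576, GENCODE 29 on GRCh38, minus strand), which encodes PERK, the kinase that phosphorylates eIF2alpha, had different levels with the 2 siRNAs. It stood at 19.2 and 19.9 CPM with siControl, at 24.5 and 23.2 with HMOX1si1 and at 13.1 and 12.2 with HMOX1si2. Both HMOX1si1 libraries were above and both HMOX1si2 libraries below the controls, and no groups overlapped. EIF2AK3 fell with HMOX1si2, at -0.62 on the log2 scale (SE 0.11, edgeR adjusted p = 0.0370), while the value with HMOX1si1 was 0.29 (SE 0.11, adjusted p = 0.138). HMOX1si2 differed from HMOX1si1 by -0.91 (SE 0.11, adjusted p = 0.0176). Both calls were lost without any 1 of the 6 libraries, with log2 values from -0.67 to -0.58 against siControl and from -0.97 to -0.87 between the siRNAs over all settings, and adjusted p up to 0.170 and 0.105.

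ATF6, a sensor that is cut in the Golgi to release a transcription factor, was at 85.0 and 76.7 CPM with siControl, 94.7 and 100.1 with HMOX1si1, and 107.8 and 99.1 with HMOX1si2. All 4 knockdown libraries were above both controls, and the average of 0.31 (95% interval 0.10 to 0.53) did not pass the threshold (edgeR adjusted p = 0.0774). ERN1, which encodes the kinase and endonuclease IRE1, was at 110.4 and 94.9 CPM with siControl, 106.1 and 114.2 with HMOX1si1 and 88.0 and 76.5 with HMOX1si2. Both HMOX1si2 libraries were below both controls, at -0.32 (SE 0.12, adjusted p = 0.171), and the HMOX1si1 libraries overlapped the controls. DESeq2 called ERN1 between the siRNAs. XBP1, the transcription factor whose messenger RNA is spliced by IRE1, was at 76.4 and 75.4 CPM with siControl, 81.3 and 92.1 with HMOX1si1 and 73.2 and 69.2 with HMOX1si2. Its values were 0.19 and -0.09, neither past the threshold.

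HSPA5 (chr9:125234853-125241330, minus strand) encodes BiP, the HSP70 chaperone that also holds the sensors inactive. It was at 681 and 702 CPM with siControl, 686 and 674 with HMOX1si1 and 512 and 555 with HMOX1si2. The HMOX1si1 libraries overlapped the controls and the HMOX1si2 libraries were below all others. The log2 fold change was -0.03 (95% interval -0.24 to 0.19) with HMOX1si1 and -0.37 (-0.59 to -0.16) with HMOX1si2, which did not pass the threshold in edgeR (adjusted p = 0.0657). DESeq2 called HSPA5 with HMOX1si2 and between the siRNAs. HSP90B1, the ER member of the HSP90 family (GRP94), was the most abundant of the 31 genes by CPM, at 1062 and 1057 with siControl, 1147 and 1120 with HMOX1si1 and 999 and 1018 with HMOX1si2. The groups did not overlap, yet the changes were small, at 0.10 and -0.07. HYOU1, an HSP70-like protein that exchanges the nucleotide of BiP, was at 339.9 and 420 CPM with siControl, 540 and 576 with HMOX1si1 and 505 and 377 with HMOX1si2. Both HMOX1si1 libraries were above both controls (0.55, SE 0.17, adjusted p = 0.0914, called in DESeq2), while the HMOX1si2 libraries overlapped the controls.

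DNAJB9 (chr7:108569568-108574850, plus strand), a J-domain co-chaperone of BiP that is itself a target of XBP1 and represses IRE1, had the largest fold change of the 31 genes against siControl. It was at 32.7 and 31.1 CPM with siControl, 30.4 and 25.6 with HMOX1si1, and 16.0 and 16.4 with HMOX1si2. All knockdown libraries were below both controls, and those of HMOX1si2 were the lowest. DNAJB9 fell to 50.8% of control with HMOX1si2, that is, it fell by 0.98 on the log2 scale (SE 0.12, edgeR adjusted p = 0.0199), and the value with HMOX1si1 was -0.19 (adjusted p = 0.336). It also fell for the average of both, by 0.58 (SE 0.10, adjusted p = 0.0274). HMOX1si2 differed from HMOX1si1 by -0.79 (SE 0.12, adjusted p = 0.0299). Exons of DNAJB9 overlap those of PNPLA8 and THAP5, so reads could be divided between them. With the 3 genes summed, the value with HMOX1si2 was -0.53 (adjusted p = 0.0387), and the average (-0.28, adjusted p = 0.0839) and the difference between the siRNAs (-0.49, adjusted p = 0.0553) were no longer past the threshold. The HMOX1si2 call was lost without siControl replicate 1, siControl replicate 2 or HMOX1si2 replicate 1, where its adjusted p reached 0.126 at most. The call between the siRNAs was lost without any 1 of the 6 libraries, and the average call without any 1 except HMOX1si2 replicate 2 (adjusted p up to 0.144 and 0.153).

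Of the other co-chaperones, DNAJB11, which delivers unfolded proteins to BiP, was at 93.1 and 100.9 CPM with siControl, 79.2 and 83.0 with HMOX1si1 and 78.4 and 74.2 with HMOX1si2. All 4 knockdown libraries were below both controls, with an average of -0.30 (95% interval -0.50 to -0.11, edgeR adjusted p = 0.0661). DNAJC3, an inhibitor of PERK as well as a co-chaperone, had values of 0.16 with HMOX1si1 and -0.19 with HMOX1si2, neither past the threshold. SDF2L1, a partner of DNAJB11, was at 16.9 and 18.8 CPM with siControl, 13.6 and 9.38 with HMOX1si1 and 10.0 and 15.9 with HMOX1si2. Its knockdown libraries were all below the controls but differed by up to 1.59-fold within a group, and the average was -0.55 (95% interval -1.11 to 0.01). SDF2L1 and SEC61B have gene models under 1500 exon bases. Over 470 such genes with at least 1 CPM the median log2 fold change was -0.29 with HMOX1si1 and -0.20 with HMOX1si2, against 0.01 with either for 11783 longer genes. The median log2 ratio of replicate 1 to replicate 2 of these short genes was -0.18, 0.13 and -0.17 in the siControl, HMOX1si1 and HMOX1si2 groups, and the part of this in the values of SDF2L1 and SEC61B was not tested.

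The disulfide enzymes held the gene that rose with both siRNAs. ERO1A (chr14:52639916-52695900, minus strand) encodes the oxidase that passes electrons from protein disulfide isomerase to oxygen, and it is also known as a hypoxia-induced gene. It was at 69.1 and 60.5 CPM with siControl, 94.8 and 102.2 with HMOX1si1, and 111.7 and 98.6 with HMOX1si2. All 4 knockdown libraries were above both controls and the 2 siRNAs overlapped each other. ERO1A rose by 0.60 on the log2 scale with HMOX1si1 (SE 0.12, edgeR adjusted p = 0.0317) and by 0.70 with HMOX1si2 (SE 0.12, adjusted p = 0.0332). The average of both was 0.65 (SE 0.10, adjusted p = 0.0225), which is 1.57-fold. HMOX1si2 differed from HMOX1si1 by 0.09, with a 95% interval from -0.19 to 0.38. The calls with HMOX1si1 and on average were lost without any 1 siControl or HMOX1si1 library, and that with HMOX1si2 without any 1 library but HMOX1si2 replicate 2. The log2 values stayed between 0.52 and 0.79 for the single siRNAs over all settings, and the adjusted p reached 0.176 and 0.155. ERO1B, the second oxidase of this kind and typical of endocrine and exocrine pancreas, was at 3.54 and 3.42 CPM with siControl, 2.81 and 2.20 with HMOX1si1 and 3.50 and 3.03 with HMOX1si2. It did not pass the threshold in any comparison.

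PDIA6 (chr2:10783391-10837977, minus strand), a disulfide isomerase that also attenuates IRE1 and PERK signalling, was at 427 and 428 CPM with siControl, 298 and 278 with HMOX1si1 and 382 and 433 with HMOX1si2. Both HMOX1si1 libraries were below all others, and the HMOX1si2 libraries spanned the controls. PDIA6 fell with HMOX1si1 to 67.4% of control (-0.57, SE 0.10, edgeR adjusted p = 0.0266), and the value with HMOX1si2 was -0.07 (95% interval -0.32 to 0.18). HMOX1si2 exceeded HMOX1si1 by 0.50 (SE 0.10), which did not pass the threshold (adjusted p = 0.0573). DESeq2 called PDIA6 in this comparison and on average too. The call was lost without any 1 siControl or HMOX1si1 library (adjusted p up to 0.175), with values from -0.63 to -0.52 over all settings. Summed with ATP6V1C2, whose exons overlap, PDIA6 gave the same -0.57. The other isomerases stayed near control: PDIA4 at 489 to 532 CPM, PDIA3, which works with calnexin and calreticulin, at 497 to 606 CPM, and P4HB, the prototype isomerase, at 496 to 584 CPM over the 6 libraries. P4HB was above both controls in all 4 knockdown libraries, by 0.15 on average (95% interval -0.03 to 0.33).

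CALR and CANX encode calreticulin and calnexin, the lectins that hold glycoproteins while they fold. CALR was at 620 and 744 CPM with siControl, 711 and 778 with HMOX1si1 and 779 and 789.6 with HMOX1si2, and CANX at 832 and 814, 921 and 940, and 856 and 903. The average changes were 0.16 (95% interval -0.08 to 0.41) for CALR and 0.14 (-0.04 to 0.31) for CANX. The knockdown libraries of CANX were all above the controls, and of CALR only the HMOX1si1 libraries overlapped them. The secreted stress factors CRELD2 (23.2 to 31.1 CPM) and MANF (61.4 to 76.6 CPM), both known to be induced when the ER is stressed, had average changes of 0.12 (-0.15 to 0.38) and -0.06 (-0.35 to 0.24).

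In ER-associated degradation, SEL1L (chr14:81471549-81533861, minus strand), the scaffold of the ubiquitin ligase SYVN1 (HRD1), had the largest difference between the siRNAs of the 31 genes. It was at 95.4 and 75.2 CPM with siControl, 58.0 and 54.3 with HMOX1si1, and 106 and 108 with HMOX1si2. Both HMOX1si1 libraries were below and both HMOX1si2 libraries above the controls, which themselves differed by 1.27-fold. SEL1L fell with HMOX1si1 (-0.60, SE 0.13, edgeR adjusted p = 0.0429), and the value with HMOX1si2 was 0.33 (SE 0.13, adjusted p = 0.184). HMOX1si2 exceeded HMOX1si1 by 0.93 (SE 0.13, adjusted p = 0.0230), or 1.91-fold. This difference kept its call without either siControl library and lost it without any 1 knockdown library (adjusted p up to 0.139, values from 0.88 to 0.98 over all settings). The call with HMOX1si1 was lost without any 1 of the 6 libraries, with values from -0.76 to -0.43 and adjusted p up to 0.212. The 120 bases before the start of SEL1L are shown because it was called and held neither ERSE nor ERSE-II. Those of DNAJB9, ERO1A and EIF2AK3 lie in annotated exons and are not shown. The bases of SEL1L are from RefSeq at chr14:81533854-81533973, minus strand, with the CCAAT letters in capitals as read on the opposite strand:

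SEL1L: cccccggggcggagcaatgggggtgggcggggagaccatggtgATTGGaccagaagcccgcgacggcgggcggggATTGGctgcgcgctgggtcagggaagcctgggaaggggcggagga

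SYVN1, the ligase itself, was at 103.4 and 106.9 CPM with siControl, 103.9 and 132.7 with HMOX1si1 and 129.9 and 97.1 with HMOX1si2, and these groups overlapped. Exons of SYVN1 overlap those of FAU and MRPL49. Its average was 0.14 alone and -0.11 with their counts added, neither past the threshold. DERL2, a derlin of the same membrane complex, was at 22.2 and 26.5 CPM with siControl, 19.9 and 18.4 with HMOX1si1 and 15.4 and 17.5 with HMOX1si2. All 4 knockdown libraries were below both controls, at an average of -0.46 (95% interval -0.74 to -0.17, edgeR adjusted p = 0.0641). Exons of DERL2 overlap those of MIS12, and with the pair summed the average was -0.355 (adjusted p = 0.0572). DESeq2 called DERL2, DNAJB11 and ATF6 with HMOX1si2 and on average. DERL1, the other derlin listed, was at 76.6 and 78.6 CPM with siControl, 71.0 and 52.5 with HMOX1si1 and 72.6 and 79.2 with HMOX1si2 (average -0.18, adjusted p = 0.390). HERPUD1, a stress-induced organiser of the ligase complex, was at 42.7 and 33.1 CPM with siControl, 27.6 and 25.5 with HMOX1si1, and 28.4 and 41.9 with HMOX1si2. Its average was -0.31, with a 95% interval from -0.76 to 0.14. EDEM1, which marks misfolded glycoproteins for removal, and SELENOS, which links the derlins to the cytosolic extraction machinery, had averages of -0.04 and -0.02.

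Of the 31 genes, SEC61A1, the channel itself, varied most between replicates. It was at 688 and 321 CPM with siControl, 294 and 565 with HMOX1si1 and 537 and 566 with HMOX1si2, so that the replicates of siControl differed by 2.14-fold and the groups overlapped. Its exons overlap those of RUVBL1, but the sum of the pair varied too, at 765 and 404, 377 and 643, and 602 and 643 CPM. A gap of over 2-fold between replicates was seen in this 1 of the 31 genes, and in 3.99% of 11190 genes at or above the level of ERO1B. SEC61B, a small subunit of the channel, was at 42.2 and 51.7 CPM with siControl, 34.4 and 24.3 with HMOX1si1 and 23.9 and 37.1 with HMOX1si2. All 4 knockdown libraries were below the controls, at -0.65 on average (95% interval -1.19 to -0.11), which did not pass the threshold (edgeR adjusted p = 0.111) but was called in DESeq2. SEC61B is 1 of the genes under 1500 exon bases described with SDF2L1. SSR1, a subunit of the complex that assists translocation, was at 84.9 and 115 CPM with siControl, 78.2 and 78.7 with HMOX1si1 and 94.6 and 79.5 with HMOX1si2 (average -0.28, adjusted p = 0.240).

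**Figure D3:**
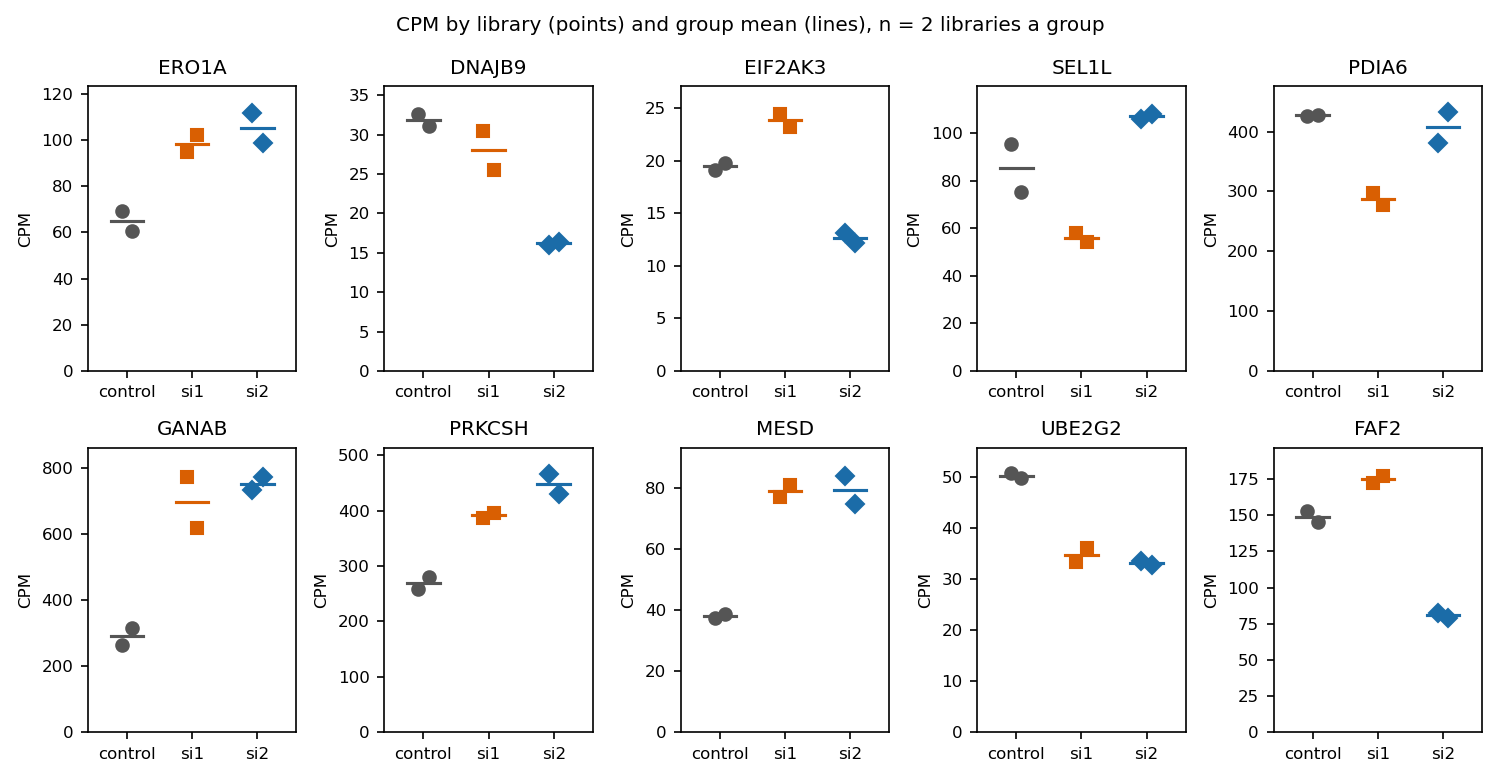
CPM after scaling (y axis, from 0) in each library (points) and the mean of the 2 libraries of a group (lines) for siControl (control), HMOX1si1 (si1) and HMOX1si2 (si2). The upper panels hold the 5 listed ER genes past the threshold in any comparison and the lower panels 5 further ER genes, of which GANAB, PRKCSH and MESD are higher and UBE2G2 lower in all 4 knockdown libraries, and FAF2 is lower with HMOX1si2.

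The promoter elements can be set beside these changes. Of the 11 genes with ERSE or ERSE-II, PDIA6 was called with HMOX1si1, and their median log2 fold change was -0.01 with HMOX1si1, -0.07 with HMOX1si2 and 0.01 on average. Of the 18 genes with neither, ERO1A and SEL1L were called with HMOX1si1 and ERO1A, DNAJB9 and EIF2AK3 with HMOX1si2, and the medians were 0.00, -0.07 and -0.05. Of all genes tested, 10.0% were called with HMOX1si1 and 5.73% with HMOX1si2. The genes with an element spanned -0.64 to 0.55 with HMOX1si1 and -0.46 to 0.24 with HMOX1si2. Those with neither spanned -0.68 to 0.60 and -0.98 to 0.70. The genes were few, and the difference between the classes was not tested.

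**Figure D4:**
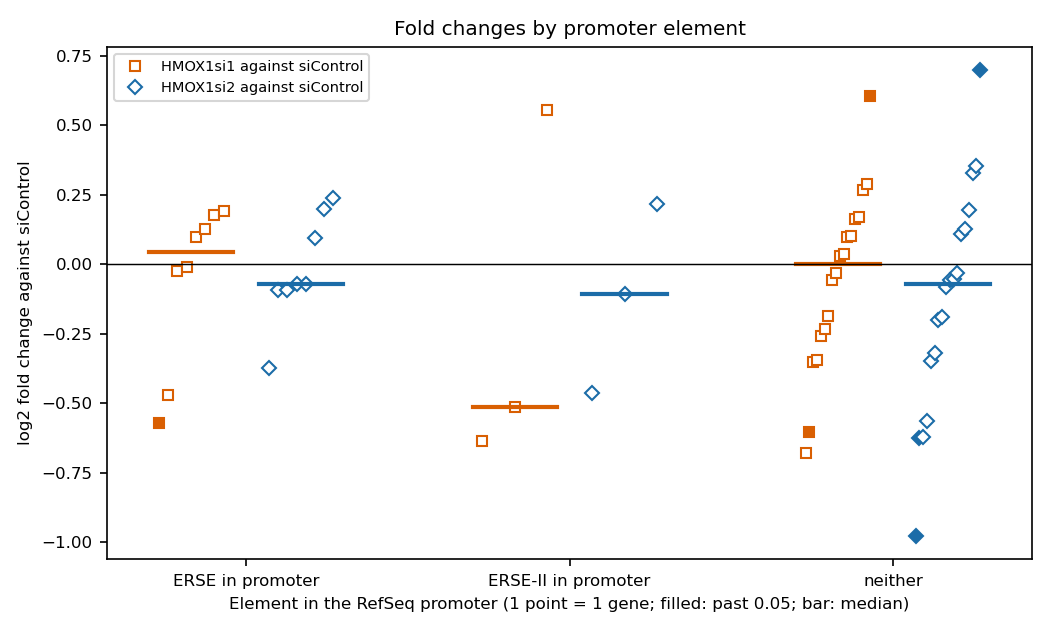
Log2 fold change against siControl (y axis) with HMOX1si1 (squares) and HMOX1si2 (diamonds) for the ER genes with ERSE (8 genes), ERSE-II (3) or neither (18) in the RefSeq promoter (x axis), 1 point per gene, filled where the edgeR adjusted p is under 0.05, with bars at the medians. Of the filled points only PDIA6, at -0.57 with HMOX1si1, lies among the genes with an element. Of all genes tested, 10.0% were called with HMOX1si1 and 5.73% with HMOX1si2.

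Further genes of the same organelle were read from 8 lists of 146 genes. In the calnexin and calreticulin cycle, both subunits of glucosidase II, which trims glucose from new glycoproteins, rose with each siRNA (2 of 7 genes tested, against 10.0% of all genes with HMOX1si1 and 5.73% with HMOX1si2). GANAB, the catalytic subunit, was at 266 and 315 CPM with siControl, 773 and 619 with HMOX1si1 and 735 and 773 with HMOX1si2. All 4 knockdown libraries were well above the controls (average 1.32, SE 0.13, edgeR adjusted p = 0.00905). PRKCSH, the other subunit, was at 259 and 279.8 CPM, 387 and 396, and 465 and 429.7, with an average of 0.64 (SE 0.08, adjusted p = 0.0155) and the same order of groups. PRKCSH shares exons with ODAD3. The average call of GANAB was lost without either siControl library, with an adjusted p up to 0.0955, and that of PRKCSH also without either HMOX1si1 library, with an adjusted p up to 0.108. The lectin MLEC differed between the siRNAs, at 460 and 394 CPM with siControl, 324 and 300.5 with HMOX1si1 and 554 and 612 with HMOX1si2 (HMOX1si2 against HMOX1si1 0.90, SE 0.12, adjusted p = 0.0180).

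Of 31 other folding factors tested, 3 rose and 1 fell on average, against 5.16% of all genes higher and 4.93% lower. MESD, a chaperone of lipoprotein receptors, went from 37.4 and 38.6 CPM to 77.1 and 81.0 with HMOX1si1 and 84.0 and 74.7 with HMOX1si2 (average 1.06, SE 0.09, edgeR adjusted p = 0.00757). It shares exons with CEMIP, and its average call was lost without either siControl library (1.02 to 1.10 over all settings). The peroxiredoxin PRDX4 and the prolyl isomerase FKBP9 rose by 0.84 and 0.41 on average (adjusted p = 0.0442 and 0.0306), and the peroxidase GPX8 fell by 0.49 (adjusted p = 0.0248).

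Of 26 other genes of ER-associated degradation, 2 fell on average (against 4.93% of all genes) and none rose in edgeR. DESeq2 called 7, against 2612 of all genes. In edgeR, 8 had an unadjusted p under 0.05, against 4316 of all 13769 genes tested. UBE2G2, a ubiquitin-conjugating enzyme of this pathway, was at 50.8 and 49.8 CPM with siControl, 33.4 and 36.2 with HMOX1si1, and 33.6 and 32.9 with HMOX1si2 (average -0.57, SE 0.08, adjusted p = 0.0172). Every knockdown library was below the controls. The average call was lost without any 1 siControl or HMOX1si1 library, at values from -0.59 to -0.54. FAF2, which recruits the extraction ATPase, was at 153 and 145 CPM with siControl, 173 and 177 with HMOX1si1 and 82.3 and 79.2 with HMOX1si2. FAF2 fell with HMOX1si2 (-0.88, SE 0.09, adjusted p = 0.0134) and differed between the siRNAs (-1.11, SE 0.09, adjusted p = 0.00761). EDEM3, a relative of EDEM1, also differed between them (-0.94, adjusted p = 0.0203), with 102 and 98.0 CPM under HMOX1si1 and 50.1 and 54.3 under HMOX1si2.

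Of 25 other genes of translocation, signal cleavage and glycan transfer, 2 fell on average, against 4.93% of all genes: SRPRA, the receptor of the signal recognition particle (-0.39, adjusted p = 0.0380), and SPCS3, a signal peptidase subunit (-0.51, adjusted p = 0.0494). SRPRA fell with HMOX1si1 (-0.89, SE 0.09, adjusted p = 0.00852) from 294 and 310 to 157 and 168 CPM, and was at 337 and 315 CPM with HMOX1si2. It shares exons with FAM118B and FOXRED1. The average was above 0 in 5 of these 25 genes, against 6810 of all 13769 genes tested. The median of the 25 was -0.19, against -0.00 over all genes tested. Of the 25 genes, 2 have gene models under 1500 exon bases (median -0.13), and the median of the other 23 was -0.19. The part of gene length in these values was not tested.

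Of 12 genes tested from the PERK and eIF2alpha arm, 2 rose and 3 fell on average, against 10.1% of all genes called in either direction. PPP1R15A, a subunit that returns eIF2alpha to its unphosphorylated form, rose by 1.44 (SE 0.13, edgeR adjusted p = 0.00757), from 64.9 and 71.5 CPM to 213 and 239.8 with HMOX1si1 and 168 and 135 with HMOX1si2. NUPR1, a stress-induced nuclear protein, rose by 1.60 (SE 0.15, adjusted p = 0.00763), from 3.62 and 4.17 CPM to 7.18 and 8.40 with HMOX1si1 and 19.2 and 16.6 with HMOX1si2. ASNS (asparagine synthetase, -0.62, adjusted p = 0.0170), PPP1R15B (the constitutive counterpart of PPP1R15A, -0.39, adjusted p = 0.0389) and CHAC1 (a glutathione-degrading enzyme, -1.54, adjusted p = 0.0436) fell. Known targets of this arm thus lay on both sides of control.

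Among 10 genes of the other sensor arms, CREB3L1, an ER-bound transcription factor of the ATF6 type, was at 158 and 160.4 CPM with siControl, 73.1 and 87.9 with HMOX1si1 and 258 and 206 with HMOX1si2. It fell with HMOX1si1 (-0.98, SE 0.15, edgeR adjusted p = 0.0178) and differed between the siRNAs by 1.53 (SE 0.15, adjusted p = 0.0112). BHLHA15, a factor of secretory cells, rose with HMOX1si1 (0.71, adjusted p = 0.0493). In ER calcium handling, ITPR2, a calcium release channel, rose on average by 0.78 (adjusted p = 0.0415) and TMCO1 fell by 0.35 (adjusted p = 0.0420), of 12 genes, against 5.16% of all genes higher and 4.93% lower. In the traffic between ER and Golgi, read against the same shares, 3 of 23 genes were called. SEC16A, which organises exit sites, rose by 0.46 (adjusted p = 0.0418), and KDELR2 and KDELR3, receptors that return chaperones to the ER, fell by 0.33 and 0.49 (adjusted p = 0.0442 and 0.0390). TMCO1, KDELR2 and KDELR3 share exons with UCK2, DAGLB and DDX17. Over these further lists, 5 to 7 of 50 called values stayed past the threshold without 1 siControl library, and 50 kept their direction.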

How the data were processed

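RNA of AsPC-1 cells was read in 6 libraries, made with an mRNA library kit after jetPRIME transfection, per the labels' protocols. The authors' deposited values are read here to be expected counts, also called estimated counts. No label names this unit, and it was inferred from whole-number values: 71.9% of those between 1 and 10 are even, compared with 49.9% above 100, and how reads were assigned is not given in the sources used here. Expected counts are rounded before a test, which altered no value. GRCm38 and mm10 are named in the submitters' processing notes, yet the gene identifiers are human, which leaves the counting build unknown. Unused columns numbered 0.

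Of 20263 genes, 20224 matched GENCODE 29 (GRCh38), the source of coordinates, exon lengths and exonic overlap. Exons of 12 of the 31 ER genes overlap another gene of the table, whose reads could be divided between gene models.

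In R 4.3.3 with edgeR 4.0.16, filterByExpr kept 13769 genes, TMM gave the scaling, and glmQLFit and glmQLFTest used 1 mean for each group with all 6 libraries in the fit. P-values were adjusted by Benjamini-Hochberg over all genes tested, with a threshold of 0.05. Standard errors are the absolute log2 fold change over the square root of F. The fit had a common biological coefficient of variation of 0.165 and 3.11 prior degrees of freedom. The closing section gives the alternatives, among them DESeq2 1.42.0.

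The genes, lists and tests were chosen with earlier results of these data known. All listed ER genes and HMOX1 are named, with values per library for those called in any comparison and the leading gene of each role. From each further list at most 4 genes with the smallest p on average are named, plus others past the threshold, and 1 gene was left out of the lists and is not reported here. The other genes given per library were chosen after their values were seen. Promoter motifs were searched with Python 3.11.15 in RefSeq promoters (GRCh38.p14).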

Additional observations from a re-analysis of the deposited data

Results flagged for a closer look

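For 3 of the ER genes the effects of the 2 siRNAs differed by a test of the difference itself (edgeR, adjusted over all 13769 genes). The log2 difference of HMOX1si2 against HMOX1si1 was -0.79 for DNAJB9, -0.91 for EIF2AK3 and 0.93 for SEL1L. The SEL1L difference kept its call without either siControl library and lost it without any 1 knockdown library. The EIF2AK3 and DNAJB9 differences lost theirs without any 1 of the 6 libraries. All 3 kept their direction in each of these fits. HMOX1 itself was lower with HMOX1si2 than with HMOX1si1 (log2 difference -1.10), and the part of this in the 3 differences was not tested.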

How the results depend on the processing

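None of the 11 called values of the ER genes reversed under any setting tried. The number of ER genes called was within 1.5 times of 3, 3, 2 and 3 (HMOX1si1, HMOX1si2, their average, and HMOX1si2 against HMOX1si1) with other size factors, library totals, either expression filter or a robust fit, although SEL1L with HMOX1si1 lost its call with library totals. DESeq2 called 4, 7, 7 and 6, and 2590, 1845, 2612 and 1367 of all genes against 1381, 789, 1389 and 499 in edgeR. Tested against a 1.2-fold change (glmTreat), the numbers were 0, 1, 0 and 2 (539, 200, 284 and 258 of all genes). With only the groups of the comparison, HMOX1si2 gave 1 and the difference between the siRNAs 1 (179 and 156 of all genes). With counts summed over exon-overlapping genes, an alternative chosen after seeing the data, the average gave 1. Leaving out 1 library gave 0 to 2, 0 to 2, 0 to 3 and 0 to 1 ER genes, and as few as 0, 0, 0 and 19 of all genes. The lone library of a group is then assumed to vary like the others. With a replicate block, edgeR called 0 ER genes in each comparison and 481, 45, 255 and 87 of all genes. Deviations of same-numbered libraries correlated at -0.05, 0.07 and -0.34 over 10874 genes, so the numbers were not taken to pair the libraries. Of 50 called values of the further ER genes, 50 kept their call in DESeq2, 43 with library totals and 13 with the replicate block. The cause of these losses was not tested. The lowest count of an ER gene in a library was 88, and the effect of depth on the calls was not tested.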
